A study of Homo sapiens with 40 samples.

Results

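The interferon-stimulated genes described here were 35 listed genes whose transcription is driven by type I interferon. Each was read from the 1 probe set, annotated to exactly 1 gene symbol, that had the highest mean over all 40 arrays. Of the 35 listed genes 34 were measured, out of 18244 genes in the series, and STAT2 was not analysed here. The cells were AG1522 (AG01522) fibroblasts, an established line of normal human skin fibroblasts, grown to full confluence before irradiation with X-rays. There were 4 sham-irradiated arrays. Irradiated cultures had received 5 cGy (the priming dose), 2 Gy (the challenge dose), or both with 12 h between them (5 cGy + 2 Gy). Each irradiated group had 3 arrays at each of 3, 6, 12 and 24 h after its last dose, which made 13 groups. The sham arrays stood for 0 h only, so that a later time carried both the dose and the time in culture, and these cannot be told apart against sham.

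In the interferon pathway, cells that sense foreign or misplaced nucleic acid make interferon beta. The secreted protein binds its receptor on the same and on neighbouring cells, and the kinases JAK1 and TYK2 then activate transcription factors. One of these, ISGF3, has IRF9 as a subunit and binds a short DNA motif, the interferon-stimulated response element, in front of the genes described here. Fibroblasts are a classical source of interferon beta, and many of these genes keep a low level of expression without any infection.

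All values are log2 intensities, and a difference of 1 is a doubling. Probe sets with the highest means over the arrays were those of ISG15 (11.15), a ubiquitin-like protein that is attached to other proteins, IFI6 (10.95), IRF9 (10.33), the ubiquitin ligase TRIM22 (10.11) and the antiviral GTPase MX1 (9.84). The lowest means were those of HERC5 (3.45), the ligase that attaches ISG15, RSAD2 (3.60), an enzyme that makes an antiviral nucleotide, SAMD9 (5.00), IFI44L (5.22) and SAMD9L (5.40). Probe sets bind with different strength, so these means give where each gene sat on the scale and are not amounts of RNA. Of the 34 means, 24 lay above the median of all genes, 6.58. Detection calls were not used here, and differences of the lowest probe sets are close to the floor of the scale. Group means spanned most in IFIH1 (1.29), DDX60 (1.10), TRIM22 (1.06), OAS3 (1.05), IFI27 (1.02), IFIT2 (1.00), PARP14 (0.92) and IFIT1 (0.91). In the first 3 of these the group highest in level was 5 cGy + 2 Gy at 24 h and the lowest 2 Gy at 3 h. The labelled cell type was checked on markers: the 10 fibroblast markers had means between 8.92 (FAP) and 14.57 (VIM), and the mean of the 10 lay between 11.97 and 12.56 on every array. The mean of 9 leukocyte markers lay between 4.53 and 4.88, with PTPRC (3.18) and LYZ (3.16) near the floor, NKG7 at 5.86, CD3E at 5.39 and CD68 at 8.44. Of 6 keratinocyte markers 3 had means over 6, DSP (12.09), KRT10 (10.37) and KRT14 (6.05), while KRT5 (4.57) and CDH1 (3.79) were low. In bulk RNA, fewer cells of a type and less RNA per cell cannot be told apart.

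The response element was looked for in the promoters, because the genes below differ in how they moved although most are listed as targets of the same factor. RefSeq promoter windows (GRCh38.p14, 250 bases before to 50 after a transcript start) were found for 27 of the 34 genes. Where a gene had several, as 8 did, the first was used. In 24 genes it lay at the outermost start of the gene, while in IFI27, DDX60 and XAF1 it lay at a start 4842, 7227 and 599 bases farther in. The motif, GAAA followed by any 2 bases and GAAA again, searched on both strands, was present in 16 of these 27 windows (59.3%), against 3.65% of all 27305 windows of this length and 3.04% of the 14494 windows of measured genes. A match is a run of letters and not a shown binding site. The match nearest the start is printed for genes that rose with time (IFIH1, DDX60), fell with time (IFI27, OAS3, ISG15) or differed most between replicate numbers (IFIT1, IFI44), with the motif in capitals, 5′ to 3′, on the strand that carries it.
IFIH1: agagaatcGAAACAGAAAccaaagtc
DDX60: ggagaaagGAAACCGAAActcccgcc
IFI27: gtttcctgGAAAATGAAAcctatctc
OAS3: ccgggcggGAAAACGAAAccagaaat
ISG15: gggaaaggGAAACCGAAActgaagcc
IFIT1: aacctaggGAAACCGAAAggggaaag
IFI44: agagaaagGAAACTGAAActcagtgt

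These runs lay at chr2:162318688-162318713 (IFIH1, minus strand), chr4:168318788-168318813 (DDX60, minus), chr14:94110633-94110658 (IFI27, plus), chr12:112938454-112938479 (OAS3, plus), chr1:1013382-1013407 (ISG15, plus), chr10:89392512-89392537 (IFIT1, minus) and chr1:78649763-78649788 (IFI44, minus). IFIT1 and IFI44 are on the plus strand, so their motif was on the strand opposite to the gene; in the other 5 genes it was on the strand of the gene. The 10 bases of the motif were identical in DDX60, ISG15 and IFIT1. Genes on both sides of the time comparison carried the motif. Windows of IRF9, TRIM25, OAS1, PARP9, CMPK2, RSAD2, IRF1, IFI35, XAF1, HERC6 and SAMD9L held no match in these letters, though a further window of RSAD2 and of PARP9 did, which made 18 of the 27 genes with a match in any window. IFIT2, MX2, OAS2, OASL, IRF7, USP18 and TRIM22 had no entry.

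The level of the genes followed the replicate number of the labels in every group, and this is given before the comparisons because it touches all of them. The mean over the 34 genes was 7.89, 7.33, 7.18 and 7.36 on sham replicates 1 to 4. Replicate 1 had the highest mean in 13 of 13 groups, and replicate 3 the lowest of replicates 1 to 3 in 13 of 13. Replicate 1 arrays lay between 7.68 and 7.95, and all arrays numbered 2 or 3 between 7.17 and 7.64, without overlap. The 13 group means spanned only 0.22, from 7.41 (5 cGy at 24 h) to 7.63 (5 cGy + 2 Gy at 6 h), with a sham mean of 7.44 ± 0.31 (SD, n = 4). The gap between replicate 1 and the mean of replicates 2 and 3 was 0.64 in sham. Over the 3 treatments it averaged 0.56, 0.54, 0.52 and 0.30 at 3, 6, 12 and 24 h.

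**Figure D1:**
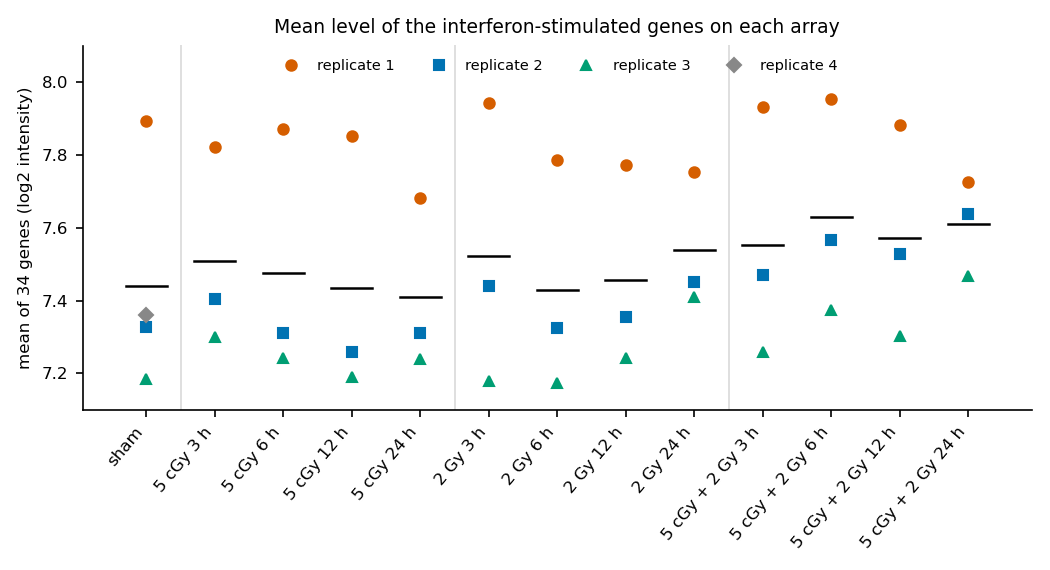
Mean log2 intensity of the 34 genes on each of the 40 arrays, by group (x axis), with a marker for each replicate number and a black line for the group mean. Replicate 1 (circles, 7.68 to 7.95) lies above replicates 2 and 3 (7.17 to 7.64) in all 13 groups, and the group means span 0.22.

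Replicate number took a median of 49.4% of a gene's variance over the 39 arrays numbered 1 to 3, against 10.4% over all genes, and group took 28.9% against 38.6%. It took over 50% for 15 of the 34 genes and for 3.95% of all genes. A comparison of the numbers, with the groups in the model, was added after these levels had been seen. In it 23 of the 34 genes were higher and 0 lower in replicate 1 than in replicate 2 (14% of all genes higher, 11.3% lower, limma with Benjamini-Hochberg adjustment over all genes). Replicate 1 was above replicate 3 in 24 genes and below it in 0 (18.3% and 17.3% of all genes), and replicate 2 was above replicate 3 in 10 and below it in 0 (4.82% and 6.59%). Labels call the arrays biological replicates; what a number stands for beyond that (a passage, a day, a dish) is not given in the sources used here.

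IFIT1, which binds viral RNA by its cap, had 8.67, 7.06, 6.92 and 6.79 on sham replicates 1 to 4. Its replicate 1 was 1.18 ± 0.09 above replicate 2 and 1.27 ± 0.09 above replicate 3 on the log2 scale (SE, 13 groups). IFI44 had 7.81, 5.51, 5.62 and 5.53 in sham and differences of 1.09 ± 0.12 and 1.32 ± 0.12. PARP9, a relative of the ADP-ribose transferases, differed by 0.92 ± 0.07 and 0.91 ± 0.07, and IFI27 by 0.62 ± 0.06 and 1.19 ± 0.06. In IFIT1, IFI44 and PARP9 replicates 2 and 3 lay close together, whereas in IFI27 replicate 2 also lay above replicate 3, by 0.57 ± 0.06. The share by number was highest in CMPK2 (80.1%), a nucleotide kinase of mitochondria. Number took little of the variance of a few genes. OASL, a relative of the oligoadenylate synthetases that lacks their activity, had 0.057% of its variance by number and 73.4% by group, TRIM25 0.443% and 70%, and IRF9 6.67% and 81.7%. IRF9 was still among the 23 genes called as higher in replicate 1 than in replicate 2, by 0.11 ± 0.04. HERC5, IFI44L, IRF1, IFI35, SAMD9L and RSAD2 also had under 10% by number.

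**Figure D2:**
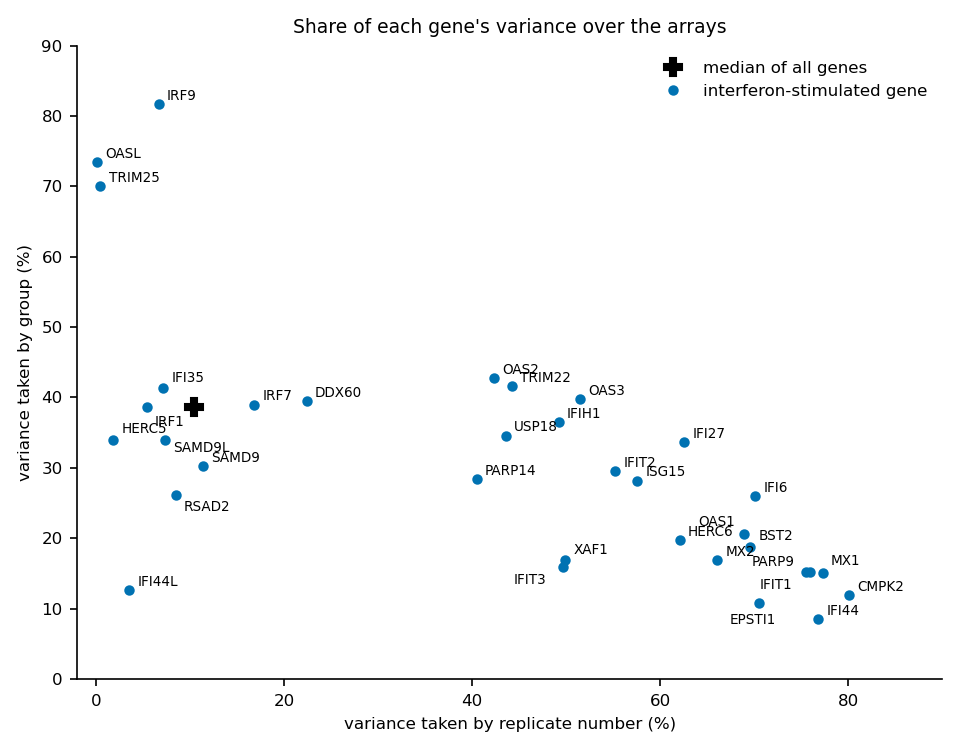
Percent of each gene's variance over the 39 arrays numbered 1 to 3 that is taken by replicate number (x axis) and by group (y axis); each point is 1 of the 34 genes and the cross is the median of all 18244 genes (10.4% and 38.6%). IRF9, OASL and TRIM25 stand at the upper left, and CMPK2, MX1, IFI44, PARP9 and IFIT1 at the lower right.

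Genes outside the list also differed between replicates 1 and 2, beside 14% of all genes that were higher in replicate 1 and 11.3% that were lower. Of 43 other interferon-induced genes 22 were higher and 3 lower in replicate 1 than in replicate 2, with GBP1 (0.93 ± 0.07), GBP2 (0.81 ± 0.09) and CCL5 (0.52 ± 0.06) among those that were higher. Of 10 receptors and JAK-STAT members 6 were higher, among them both chains of the interferon alpha and beta receptor, IFNAR1 (0.17 ± 0.04) and IFNAR2 (0.21 ± 0.05). None of 11 interferon ligands was higher, and IFNB1, the gene of interferon beta, was lower (-0.18 ± 0.06, adjusted p = 0.0217, limma). Of 9 leukocyte markers 0 were called as higher in replicate 1 and 1 as lower, and the mean of the 9 was 4.66, 4.75 and 4.78 in replicates 1, 2 and 3. Of the 10 fibroblast markers 6 were higher in replicate 1. The difference between the 3′ and 5′ GAPDH control probe sets, a sign of RNA degradation, averaged 0.416, 0.355 and 0.313 in replicates 1, 2 and 3, with a highest value of 1.05 on replicate 1 at 24 h after 2 Gy. Without that array replicate 1 averaged 0.364. The part of these values in the difference between numbers was not tested.

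Against sham few of the genes were called, and those were IRF9 and TRIM25. IRF9, the DNA-binding subunit of ISGF3, rose after 2 Gy at 12 h (0.37 ± 0.09, adjusted p = 0.0484) and after 5 cGy + 2 Gy at 12 h (0.35 ± 0.09, adjusted p = 0.0485) and 24 h (0.40 ± 0.09, adjusted p = 0.00362). TRIM25, a ubiquitin ligase that acts with the RNA sensor RIG-I, was lower at 6 h after 2 Gy (-0.50 ± 0.11, adjusted p = 0.0457) and after 5 cGy + 2 Gy (-0.49 ± 0.11, adjusted p = 0.0323). Values behind ± are standard errors of limma's model, and an adjusted p under 0.05 over all 18244 genes counted as a call. All 12 comparisons share the sham arrays. The share of all genes called in either direction was 0.192% at 6 h and 0.669% at 12 h after 2 Gy, where 1 of the 34 genes was called each time. After 5 cGy + 2 Gy it was 0.378% at 6 h, 1.4% at 12 h and 9.92% at 24 h, again with 1 gene called each time.

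IRF9 had 10.02, 9.98, 10.15 and 10.46 on sham replicates 1 to 4. Its values were 10.50, 10.53 and 10.54 at 12 h after 2 Gy, 10.61, 10.46 and 10.43 at 12 h after 5 cGy + 2 Gy, and 10.62, 10.55 and 10.49 at 24 h after 5 cGy + 2 Gy. All arrays at 12 h after 2 Gy and at 24 h after 5 cGy + 2 Gy lay above the 4 sham arrays, while at 12 h after 5 cGy + 2 Gy they overlapped with sham replicate 4 alone. Sham replicate 4 was the highest of the sham arrays. Without it the changes were 0.47 (adjusted p = 0.00332) and 0.45 (adjusted p = 0.00334) at 12 h and 0.50 (adjusted p = 0.000143) at 24 h, and IRF9 was also called at 24 h after 2 Gy (0.29, adjusted p = 0.0315) and at 6 h after 5 cGy + 2 Gy (0.38, adjusted p = 0.0457). Both calls at 12 h were lost without any one of the other 6 arrays (highest adjusted p = 0.23 and 0.257), and the call at 24 h was kept without each of the 7. It was lost without all arrays numbered 1 (adjusted p = 0.0578) and with only the arrays compared (0.18). At 24 h after 5 cGy + 2 Gy 6 of the 34 genes were called without sham replicate 1. The share of all genes called is given only with all arrays (9.92%), so the 6 cannot be read as particular to these genes. Each of the other 3 IRF9 probe sets was also above sham in all 3 comparisons, by 0.26 to 0.56.

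TRIM25 had 9.34, 9.67, 9.76 and 9.81 on sham replicates 1 to 4, against 9.37, 8.95 and 9.11 at 6 h after 2 Gy and 9.10, 9.18 and 9.18 at 6 h after 5 cGy + 2 Gy. Sham replicate 1 was the lowest of the sham arrays. Values after 2 Gy overlapped with it, and values after 5 cGy + 2 Gy did not. Within the numbers the difference after 2 Gy was 0.02, -0.72 and -0.65 for replicates 1, 2 and 3, and after 5 cGy + 2 Gy -0.25, -0.49 and -0.58. With the replicate number as a block, a fit in which sham replicate 4 drops out because no other array has its number, neither passed (adjusted p = 0.0937 and 0.0591). After 2 Gy the call was kept only without sham replicate 1 or 2 Gy replicate 1, and after 5 cGy + 2 Gy only without sham replicate 1, and was lost without any other of the 7 arrays (highest adjusted p = 0.433 and 0.166). The other TRIM25 probe set did not move with it, at 0.07 and -0.06.

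**Figure D3:**
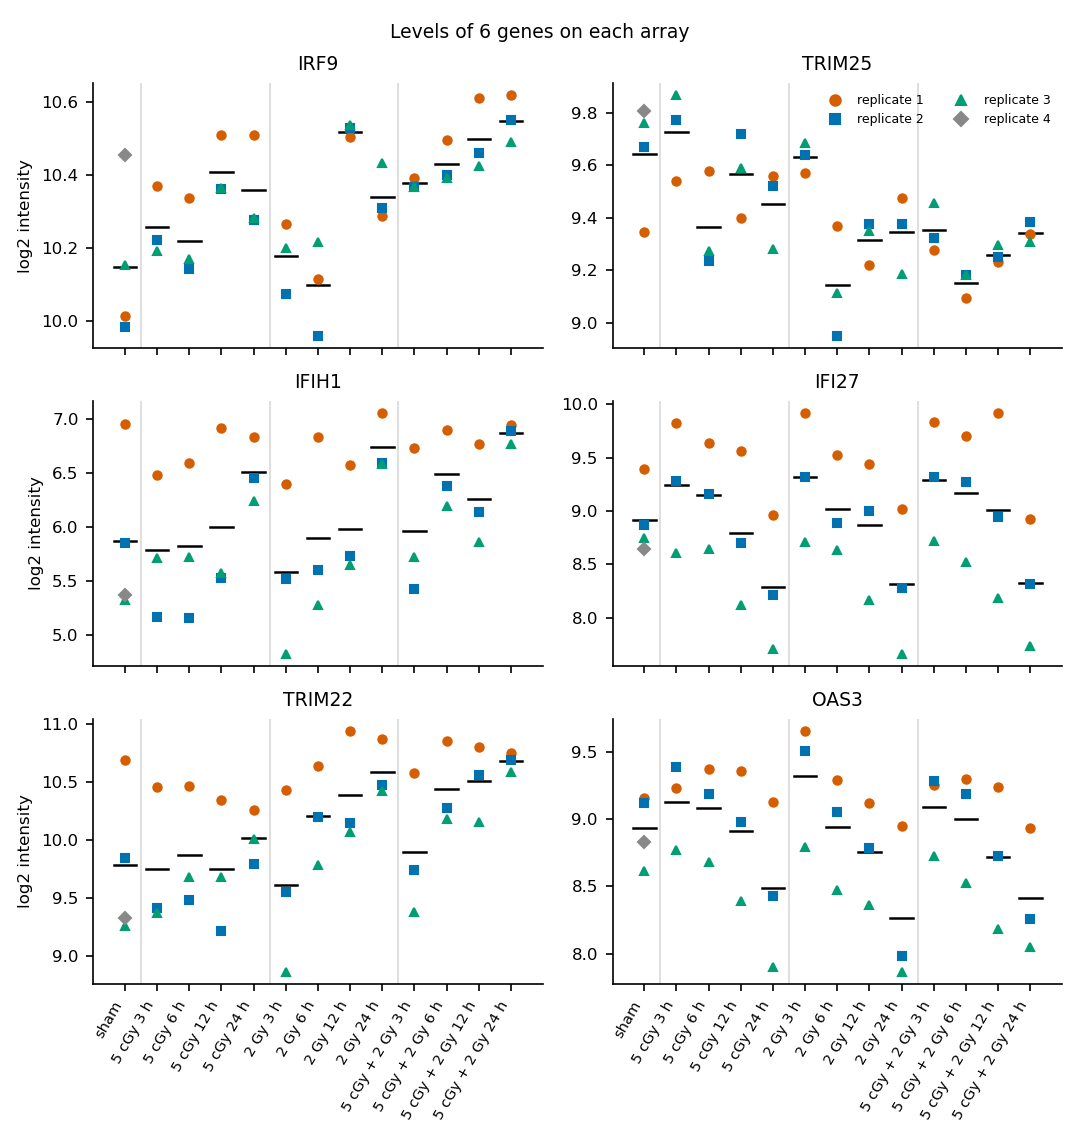
Log2 intensity of IRF9, TRIM25, IFIH1, IFI27, TRIM22 and OAS3 on each array, by group (x axis), with a marker for each replicate number, a black line for the group mean and a scale of its own in each panel. IRF9 lies above sham after 2 Gy at 12 h, IFIH1 and TRIM22 are higher and closer together at 24 h, and IFI27 and OAS3 are lower at 24 h with the order of the numbers kept in IFI27.

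In 7 of the other sham comparisons none of the 34 genes was called without the block. The share of all genes called was 0% at 3 and 6 h, 0.329% at 12 h and 3.11% at 24 h after 5 cGy, 0.132% at 3 h and 6.06% at 24 h after 2 Gy, and 0.132% at 3 h after 5 cGy + 2 Gy. After 5 cGy the smallest p above 0 were those of HERC5 (0.21 ± 0.12) and IRF1 (0.22 ± 0.16) at 3 h, CMPK2 (0.33 ± 0.29) and HERC6 (0.35 ± 0.33) at 6 h, IRF9 (0.26 ± 0.09) and IRF1 (0.26 ± 0.16) at 12 h, and IRF9 (0.20 ± 0.09) and IFIT2 (0.75 ± 0.43) at 24 h. Below 0 they were those of DDX60 (-0.62 ± 0.35) and SAMD9 (-0.43 ± 0.25) at 3 h, TRIM25 (-0.28 ± 0.11) and XAF1 (-0.41 ± 0.23), which binds an inhibitor of cell death, at 6 h, OAS2 (-0.31 ± 0.13) and DDX60 (-0.60 ± 0.35) at 12 h, and USP18 (-0.42 ± 0.23) and TRIM25 (-0.19 ± 0.11) at 24 h. None of these passed the adjustment, and the nearest was IRF9 at 24 h (adjusted p = 0.257). At 3 h after 2 Gy the smallest were those of OASL (0.27 ± 0.08, adjusted p = 0.176), IRF7 (0.33 ± 0.15), a factor that amplifies interferon production, DDX60 (-0.96 ± 0.35) and SAMD9 (-0.29 ± 0.25). At 24 h after 2 Gy they were those of TRIM22 (0.81 ± 0.35), PARP14 (0.78 ± 0.37), TRIM25 (-0.30 ± 0.11) and OAS3 (-0.67 ± 0.31). At 3 h after 5 cGy + 2 Gy they were those of OASL (0.20 ± 0.08), IRF9 (0.22 ± 0.09), TRIM25 (-0.29 ± 0.11) and RSAD2 (-0.21 ± 0.11). TRIM22 at 24 h after 2 Gy was called without sham replicate 1 (adjusted p = 0.0368), and IRF9 at 12 and 24 h after 5 cGy without sham replicate 4.

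After 2 Gy at 3 h and 24 h the replicate numbers paired the arrays, and the block changed the calls. Deviations from the group means correlated by 0.697, 0.346 and 0.616 with sham at 3 h (replicates 1, 2 and 3). At 24 h these correlations were only just over the limit of 0.1 in 2 numbers, at 0.126, 0.104 and 0.263. At 3 h the block called OAS1 as higher (0.62 ± 0.16, adjusted p = 0.0399) and DDX60 as lower (-1.10 ± 0.31, adjusted p = 0.0486), with 2.55% of all genes called. The GAPDH difference between 3′ and 5′ probe sets was 0.628, 0.675 and 0.384 on the arrays at 3 h after 2 Gy, against 0.276 to 0.398 in sham, and that of ACTB was 3.21, 3.09 and 2.84 against 2.12 to 2.68. Their part in these calls was not tested with the block. Without it, and with the GAPDH difference as a covariate, OAS1 stood at 0.29 (adjusted p = 0.753) and DDX60 at -1.14 (adjusted p = 0.244). OAS1 makes oligoadenylates when it meets double-stranded RNA, and DDX60 is a helicase thought to aid RNA sensing. OAS1 had 6.24, 5.96, 5.46 and 6.07 in sham and 7.52, 6.14 and 5.85 at 3 h, and without replicate 1 at 3 h its change without the block was 0.06. DDX60 had 7.11, 5.72, 4.81 and 5.34 in sham and 5.30, 4.63 and 4.43 at 3 h, so the groups overlapped between numbers while each number fell. On replicates 1, 2 and 3 at 24 h after 2 Gy the GAPDH difference was 1.05, 0.261 and 0.274, and that of ACTB 3.34, 2.34 and 2.47. Their part in the calls at 24 h was not tested with the block. At 24 h the block called 6 genes as higher and 3 as lower, with 14.9% of all genes called. The 6 were IFIT1, IFIT2, IFIH1, IRF9, PARP9 and TRIM22, and the 3 were IFI6, IFI27 and OAS3. IFIT2 and IFIH1 each had a dimmer probe set that moved the other way at 24 h (-0.30 and -0.13). The other IRF9 probe sets did not all move with it there, at 0.30, 0.11 and -0.04. TRIM22 stood at 0.81 ± 0.35 without the block (adjusted p = 0.191) and 0.66 ± 0.19 with it (adjusted p = 0.0189), and OAS3 at -0.67 ± 0.31 (adjusted p = 0.229) and -0.70 ± 0.14 (adjusted p = 0.000579). At 3 h and 6 h after 5 cGy + 2 Gy the block called IRF9 as higher (0.33 ± 0.07, adjusted p = 0.0213, and 0.38 ± 0.07, adjusted p = 0.00568), with 1.39% and 1.13% of all genes called.

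As a mean over the 34 genes the treatments differed from sham by -0.06 to 0.16 when compared within each number. The 3 lowest were 5 cGy at 24 h (-0.06), 2 Gy at 6 h (-0.04) and 5 cGy at 12 h (-0.04). After 5 cGy + 2 Gy the mean was above sham at each time, by 0.08, 0.16, 0.10 and 0.14 at 3, 6, 12 and 24 h. At 24 h the difference was -0.17 in replicate 1, against 0.31 in replicate 2 and 0.28 in replicate 3. Replicate 1 thus went the other way there, and the same held at 24 h after 2 Gy (-0.14, 0.12 and 0.22).

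At 24 h against 3 h, over the 3 treatments, 4 of the 34 genes rose, 6 fell and 24 passed in neither direction (adjusted p under 0.05 in limma), in a comparison that called 13.6% of all genes as higher and 9.74% as lower. Those that rose were IFIH1 (0.93 ± 0.26), the RNA sensor MDA5, IFIT2 (0.84 ± 0.26), TRIM22 (0.67 ± 0.22) and DDX60 (0.61 ± 0.22). Those that fell were IFI27 (-0.97 ± 0.26), OAS3 (-0.79 ± 0.19), USP18 (-0.39 ± 0.14), which removes ISG15 and dampens the receptor, ISG15 itself (-0.36 ± 0.12), OASL (-0.31 ± 0.05) and TRIM25 (-0.19 ± 0.07). The median over the 34 genes was -0.03, equal to that over all genes (-0.03). The GAPDH difference was above the sham range after 2 Gy, on replicates 1 and 2 at 3 h and on replicate 1 at 24 h. It was also above that range on replicate 3 at 24 h after 5 cGy (0.420). With the GAPDH difference as a covariate all 10 passed in limma (highest adjusted p = 0.0454). No sham array had a time of 3 h or 24 h, so that time in culture and time after irradiation cannot be told apart.

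IFIH1 lay between 4.83 and 6.74 on the 9 arrays at 3 h (median 5.71) and between 6.25 and 7.06 on the 9 at 24 h (median 6.78). The ranges overlapped only through replicate 1, which averaged 6.54 at 3 h and 6.95 at 24 h, whereas replicates 2 and 3 went from 5.37 to 6.65 and from 5.42 to 6.54. TRIM22 showed the same narrowing, from 10.49, 9.57 and 9.21 for replicates 1, 2 and 3 at 3 h to 10.63, 10.32 and 10.34 at 24 h. IFIT2, a relative of IFIT1, went from 5.15 to 6.87 (median 5.66) at 3 h to 6.29 to 7.17 (median 6.77) at 24 h. DDX60 rose by 0.82 and 1.00 in replicates 2 and 3 and by 0.01 in replicate 1. For all 4 genes replicate 1 thus had the smallest rise. The 9 differences of 1 number in 1 treatment were above 0 for IFIH1 (9 of 9) and IFIT2 (9 of 9), and for TRIM22 and DDX60 in 8 of 9. The share of all genes with as many differences above 0 was not counted.

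IFI27, a protein of mitochondrial and nuclear membranes, fell alike in each number, by 0.89, 1.04 and 0.98 in replicates 1, 2 and 3. It went from 9.82, 9.28 and 8.61 at 3 h to 8.96, 8.21 and 7.71 at 24 h after 5 cGy, so the order of the numbers was kept while the level dropped. OAS3, the largest of the oligoadenylate synthetases, had 9.66, 9.51 and 8.79 at 3 h after 2 Gy and 8.95, 7.98 and 7.86 at 24 h. ISG15 had a median of 11.32 at 3 h and 10.91 at 24 h, and OASL lay between 7.06 and 7.39 and between 6.78 and 7.01. The 9 OASL arrays at 3 h all lay above the 9 at 24 h, as no others of the 10 called genes did. How many of all genes had no such overlap was not counted, so this cannot be read as particular to OASL. BST2 and IFI6, a pair not called (adjusted p = 0.211 and 0.0549), were also lower in 9 of 9 differences, by 0.12 to 0.61 and 0.28 to 0.92.

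Calls of IFIH1, IFIT2, IFI27, OAS3 and OASL were kept without each of the 18 arrays in turn, with highest adjusted p of 0.0267, 0.0468, 0.0198, 0.00911 and 8.07e-05. TRIM22 was lost without replicate 3 at 3 h of any treatment or replicate 2 at 3 h after 5 cGy (highest adjusted p = 0.0662). The others rested on more arrays. DDX60 (highest adjusted p = 0.0927) and TRIM25 (0.107) were lost without any 1 of 12 of the 18 arrays, all of replicate 2 or 3 but 1 each (replicate 1 at 24 h after 2 Gy for DDX60, after 5 cGy + 2 Gy for TRIM25). ISG15 (0.0797) was lost without any 1 of 11, and kept without replicate 1 at 24 h of any treatment, replicate 3 at 3 h of any treatment, or replicate 2 at 3 h after 2 Gy. USP18 (0.121) was lost without any 1 of 13, and kept without replicate 1 at 24 h after 2 Gy, replicate 2 or 3 at 3 h after 5 cGy + 2 Gy, replicate 3 at 24 h after 5 cGy or replicate 2 at 3 h after 5 cGy. Other probe sets moved the same way for IFI27 (-0.61), TRIM25 (-0.26) and TRIM22 (0.29 to 1.06 over 5 probe sets). OAS3 had 1 other at -0.90 and 1 at -0.06, and IFIT2 had 1 at 0.08. IFIH1 had a dimmer one (mean 3.93) that moved the opposite way (-0.39), and with the mean of its probe sets IFIH1 was not called (adjusted p = 0.316).

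**Figure D4:**
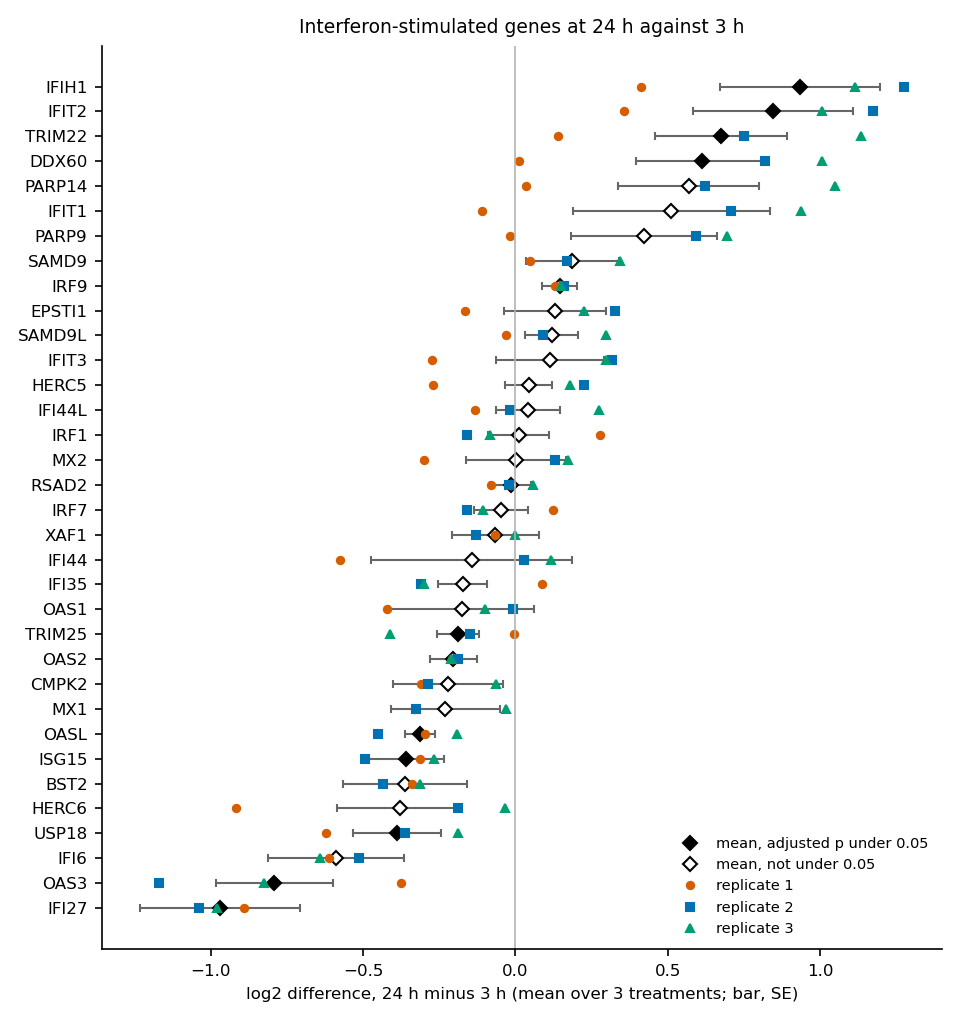
Log2 difference between 24 h and 3 h for each of the 34 genes (rows), as the mean over the 3 treatments with its standard error (diamonds, filled where the adjusted p was under 0.05) and within each replicate number (coloured markers). IFIH1, IFIT2, TRIM22 and DDX60 lie to the right with replicate 1 lowest, and IFI27 and OAS3 lie farthest to the left.

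Within single treatments fewer genes were called. After 2 Gy OAS3 (-1.05 ± 0.33, adjusted p = 0.0363) and OASL (-0.39 ± 0.09, adjusted p = 0.00371) fell, with 11.6% of all genes called. With only the arrays compared neither was called (adjusted p = 0.0654 and 0.0874), and DDX60 was (1.06 ± 0.20, adjusted p = 0.0172). The OAS3 call was lost without replicate 2 or 3 at 24 h or replicate 1 or 2 at 3 h (highest adjusted p = 0.169). After 5 cGy + 2 Gy OASL fell (-0.34 ± 0.09, adjusted p = 0.0153), with 4.99% called, and this was lost without replicate 1 or 3 at 24 h or replicate 2 at 3 h (highest adjusted p = 0.162). After 5 cGy none of the 34 was called (3.11% of all genes). There IFIT2 (0.82 ± 0.46, adjusted p = 0.404) and IFIH1 (0.72 ± 0.46, adjusted p = 0.487) had the smallest p above 0, and OASL (-0.21 ± 0.09, adjusted p = 0.2) and TRIM25 (-0.27 ± 0.12, adjusted p = 0.243) below 0. The difference in change between treatments was also tested: the test of 2 Gy minus 5 cGy and that of 5 cGy + 2 Gy minus 2 Gy each called 0 of the 34 genes and 0% of all genes. In the first the smallest p were those of DDX60 (0.81 ± 0.53) and TRIM22 (0.70 ± 0.53) above 0 and OASL (-0.17 ± 0.12) and RSAD2 (-0.22 ± 0.16) below 0. In the second they were those of HERC5 (0.44 ± 0.19), RSAD2 (0.34 ± 0.16), SAMD9 (-0.41 ± 0.37) and DDX60 (-0.54 ± 0.53).

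The study was made to ask whether a priming dose alters the response to the challenge dose, which is the comparison of 5 cGy + 2 Gy with 2 Gy. In it 0 of the 34 genes and 0% of all genes were called at each time in limma. At an unadjusted p under 0.05, 0, 2, 0 and 1 of the 34 were above 0 at 3, 6, 12 and 24 h and 1, 0, 0 and 0 below, beside 162, 172, 120 and 149 of the 18244 genes above and 791, 485, 83 and 205 below. With the replicate block at 3, 6 and 24 h, where the numbers paired the arrays, again no gene was called in limma. At that unadjusted threshold 9 of the 34 were then above 0 and 0 below at 6 h, beside 382 and 610 genes. At 3 h 2 of the 34 were above and 3 below, and at 24 h 2 were above and 0 below. Over all genes more passed this threshold below 0 than above at both of these times. The 3 below at 3 h can therefore not be read as particular to the 34 genes. The differences nonetheless leaned one way at 6 h, where 32 of 34 lay above 0 (46.8% of all genes) with a median of 0.18 against -0.01 over all genes. The medians at 3, 12 and 24 h were 0.01, 0.12 and 0.08, against -0.03, 0.02 and -0.01. At 6 h 20 of the 34 genes were higher in 3 of 3 numbers (12.9% of all genes), and at 3, 12 and 24 h 8, 10 and 10 (13.5%, 15.2% and 10.9%). Lower in 3 of 3 were 9, 1, 1 and 1 of the 34 at 3, 6, 12 and 24 h (23.8%, 13.2%, 9.25% and 17.5% of all genes). The mean over the 34 genes was higher after 5 cGy + 2 Gy in 10 of 12 pairs of equally numbered arrays. It differed by 0.17, 0.24 and 0.20 in replicates 1, 2 and 3 at 6 h, and by 0.11, 0.17 and 0.06 at 12 h. At 24 h it differed by -0.03, 0.19 and 0.06, and at 3 h by -0.01, 0.03 and 0.08. These are descriptions; genes that move together are not independent. Leaving out 1 array moved the median at 6 h to between 0.04 (without replicate 1 of 5 cGy + 2 Gy) and 0.38 (without replicate 1 of 2 Gy). At 3 and 12 h it turned to -0.18 and -0.07 without replicate 1 of 5 cGy + 2 Gy.

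**Figure D5:**
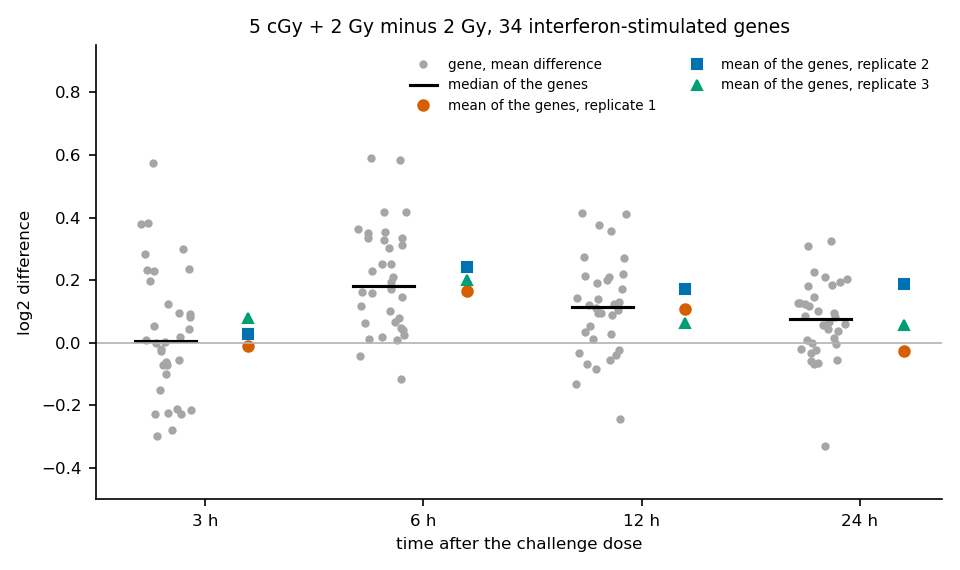
Log2 difference between 5 cGy + 2 Gy and 2 Gy at 3, 6, 12 and 24 h (x axis); grey points are the 34 genes, black lines their medians (0.01, 0.18, 0.12 and 0.08), and coloured markers the mean over the genes within each replicate number. At 6 and 12 h all 3 numbers lie above 0.

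IRF9 had the smallest p of the 34 genes in this comparison at 3, 6 and 24 h among the differences above 0. At 6 h it had 10.50, 10.40 and 10.39 after 5 cGy + 2 Gy and 10.12, 9.96 and 10.22 after 2 Gy, without overlap (0.33 ± 0.10, unadjusted p = 0.0019 in limma, adjusted p = 1). At 24 h it differed by 0.21 ± 0.10 and at 3 h by 0.20 ± 0.10 (unadjusted p = 0.0411 and 0.0556), whereas at 12 h the arrays of both groups lay between 10.43 and 10.61. Over the 4 times it was higher by 0.18 ± 0.05 (unadjusted p = 0.000979, adjusted p = 0.756) and in 10 of 12 pairs. IFIT1 and IFI6 were higher in 12 of 12 pairs, though neither was called, and the share of all genes higher in 12 of 12 was not counted. The other genes with the smallest p were DDX60 (0.58 ± 0.37) at 3 h, IFI35 (0.30 ± 0.14) at 6 h, EPSTI1 (0.38 ± 0.29) and PARP14 (0.42 ± 0.40) at 12 h and HERC5 (0.23 ± 0.13) at 24 h. Below 0 they were TRIM25 (-0.28 ± 0.12) and RSAD2 (-0.21 ± 0.12) at 3 h, OASL (-0.12 ± 0.09) and IFIT2 (-0.04 ± 0.46) at 6 h, IRF1 (-0.25 ± 0.17) and RSAD2 (-0.13 ± 0.12) at 12 h, and SAMD9 (-0.33 ± 0.26) and XAF1 (-0.07 ± 0.25) at 24 h. Over the 4 times the remaining ones were IFI35 (0.16 ± 0.07), OASL (-0.07 ± 0.04) and TRIM25 (-0.08 ± 0.06), again with 0 genes called.

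No difference between the doses passed the test at matched times. The comparison of 2 Gy with 5 cGy called 0 of the 34 at 3, 6, 12 and 24 h (0.0274%, 0.0274%, 0.011% and 0.175% of all genes) in limma, and over the 4 times again 0 (0.23%). At an unadjusted p under 0.05, 1, 0, 0 and 1 were above 0 and 0, 0, 1 and 0 below, beside 1443, 400, 143 and 206 of all genes above and 202, 408, 448 and 508 below. The medians were 0.00, -0.08, 0.03 and 0.08, against 0.05, 0.00, -0.02 and -0.01 over all genes. Above 0 lay 17, 12, 19 and 27 of the 34 (62.6%, 50.4%, 41.9% and 48.1% of all genes). At 24 h 12 of the 34 were higher in 3 of 3 numbers (17.8% of all genes) and 3 lower (17.3%). The mean over the 34 genes differed there by 0.07, 0.14 and 0.17 in replicates 1, 2 and 3. Without replicate 1 of 2 Gy the median at 24 h was -0.01. The smallest p were those of OASL (0.18 ± 0.09), IRF7 (0.22 ± 0.16), DDX60 (-0.34 ± 0.37) and IRF9 (-0.08 ± 0.10) at 3 h, OASL (0.14 ± 0.09), SAMD9 (0.25 ± 0.26), TRIM25 (-0.22 ± 0.12) and MX2 (-0.43 ± 0.29), a relative of MX1, at 6 h, TRIM22 (0.63 ± 0.38), IRF9 (0.11 ± 0.10), TRIM25 (-0.25 ± 0.12) and EPSTI1 (-0.20 ± 0.29) at 12 h, and SAMD9 (0.62 ± 0.26), TRIM22 (0.57 ± 0.38), TRIM25 (-0.11 ± 0.12) and RSAD2 (-0.10 ± 0.12) at 24 h. TRIM22 had 10.94, 10.15 and 10.07 at 12 h after 2 Gy and 10.35, 9.22 and 9.69 after 5 cGy, so it was higher in each number while the groups overlapped. Over the 4 times TRIM25 differed by -0.17 ± 0.06 (adjusted p = 0.508), SAMD9 by 0.28 ± 0.13 (adjusted p = 0.824), OASL by 0.08 ± 0.04 and CMPK2 by -0.09 ± 0.16. With all 12 irradiated groups averaged and set against sham 0 of the 34 were called (0.976% of all genes), with IRF9 (0.20 ± 0.06, adjusted p = 0.124), HERC5 (0.13 ± 0.09), DDX60 (-0.34 ± 0.24) and TRIM25 (-0.26 ± 0.08, adjusted p = 0.0967) nearest. In the test of additivity, where the changes from sham at 12 h after 2 Gy and at 24 h after 5 cGy are subtracted from that at 12 h after 5 cGy + 2 Gy, 0 of the 34 passed (0.011% of all genes). SAMD9 (0.63 ± 0.36), OAS2 (0.29 ± 0.18), IRF1 (-0.45 ± 0.24) and IRF9 (-0.23 ± 0.13) had the smallest p.

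Genes upstream of the list were read from lists of pathway members. None of the 11 interferon ligands, IFNB1 among them, was called in the comparison of 24 h with 3 h or at 24 h after any treatment against sham. The counts below for 24 h against 3 h stand beside 13.6% of all genes that rose and 9.74% that fell. Of 17 sensors, adaptors and their kinases 4 rose and 1 fell. IFI16, a DNA sensor, rose by 1.30 ± 0.14 (adjusted p = 2.24e-08) and RIGI, the RNA sensor RIG-I, by 0.47 ± 0.14 (adjusted p = 0.0145), while CGAS, which makes the messenger cGAMP from cytosolic DNA, fell by 0.39 (-0.39 ± 0.09, adjusted p = 0.00143). Against sham at 24 h after 5 cGy + 2 Gy the same genes stood at 1.12 ± 0.22 for IFI16 and -0.44 ± 0.14 for CGAS, both called. Of 8 brakes on interferon signalling 4 rose and 1, USP18, fell. PIAS1, which inhibits STAT proteins, rose by 0.72 ± 0.10, and IRF2, a repressor at the response element, by 0.44 ± 0.05. Of 10 receptors and JAK-STAT members 1 rose (IL10RB, 0.40 ± 0.07), of 18 antigen presentation genes 1 rose (PSMB8, 0.20 ± 0.05), and of 43 other interferon-induced genes 4 rose and 3 fell, with UBE2L6 (0.48 ± 0.09), the conjugating enzyme for ISG15, the highest and ISG20 (-0.43 ± 0.13) the lowest. UBE2L6 rose and ISG15 fell over the same interval. Of the 10 fibroblast markers 4 rose between 3 and 24 h and 0 fell, and of 9 leukocyte markers 1 rose; their part in the changes was not tested.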

How the data were processed

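RNA of 40 cultures was hybridised to Affymetrix PrimeView arrays. Per the labels, the authors made log2 intensities for each probe set with RMA (background correction, quantile normalisation and summarisation, all arrays together); its version is not given in the sources used here. Of 49495 probe sets, 45278 were annotated to exactly 1 gene, and each of 18244 genes was read from its probe set with the highest mean. A mean for each of the 13 groups was fitted in limma 3.58.1 (R 4.3.3), with Benjamini-Hochberg adjustment over all genes in each comparison and a threshold of 0.05. Scripts were tested on simulated data. The number of arrays limits the precision, and p-values measure the spread between these arrays. Members, lists and comparisons were chosen with earlier results of these data known. Named genes were those called, or otherwise the 2 smallest p in each direction; OAS1, PARP9, BST2, IFNAR1 and others beside them were chosen after their values were seen. Arrays with the same number deviated together (mean correlation 0.263). The -0.12 between numbers follows largely from this, because deviations from a group mean cancel out within the group. All 3 pairs were over 0.1 in 13 of 23 comparisons. In the Results single genes are given with the block only there. Alternatives were the block, array weights, cyclic loess, the interquartile range filter and threshold of the study's methods, low genes left out, the mean of probe sets, only the arrays compared, and each array left out. Leaving out all arrays numbered 1, and the GAPDH difference as a covariate, were chosen after seeing the data.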

Additional observations from a re-analysis of the deposited data

Results flagged for a closer look

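Among the 4 sham arrays, 6 of 35 values tested (34 genes and their mean) had 1 array farther from the rest than Dixon's critical value allows, given as the gap over the range; by chance about 5% of values would pass, and genes that move together are not independent. In 5 of the 6 the array was sham replicate 1, as the highest. IFI44 had 7.81 there against 5.51 to 5.62 (0.954), PARP9 8.61 against 7.59 to 7.66 (0.927), IFI6 11.51 against 10.63 to 10.74 (0.875), SAMD9 6.13 against 4.73 to 4.92 (0.866) and IFIT1 8.67 against 6.79 to 7.06 (0.856). HERC5 was lowest on sham replicate 2, with 3.02 against 3.43 to 3.46 (0.924).

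In the test of additivity with the replicate number as a block, IFI6 (0.71, adjusted p = 0.0096) and IFI27 (0.86, adjusted p = 0.00759) passed in limma, with 1.83% of all genes called, whereas without the block neither did. Sham replicate 4 drops out of that fit.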

How the results depend on the processing

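Each count is of the 34 genes called, with the share of all genes called under the same setting in brackets. With the replicate block the counts against sham were 2 (2.55%), 0 (0.395%) and 9 (14.9%) for 2 Gy at 3, 6 and 24 h, 2 (4.81%) and 6 (13%) for 5 cGy at 12 and 24 h, 1 (1.39%) and 8 (19.6%) for 5 cGy + 2 Gy at 3 and 24 h, and 1 (8.72%) for all irradiated groups. Not every pair was over 0.1 for 5 cGy at 12 and 24 h and for 5 cGy + 2 Gy at 24 h. The pairing was not checked for all irradiated groups. For 24 h against 3 h the block gave 9 (9.42%), 16 (21.3%), 7 (11.7%) and 20 (31.5%) after 5 cGy, after 2 Gy, after 5 cGy + 2 Gy and over the treatments, for additivity 2 (1.83%), and for 5 cGy + 2 Gy against 2 Gy over the times 1 (0.121%), IRF9 (adjusted p = 0.0427); in these the numbers did not pair the arrays in every pair or were not checked. Without all arrays numbered 1 the counts were 0 (0.943%) and 8 (11.1%) for 2 Gy at 12 and 24 h, 2 (1.36%), 4 (3.52%) and 10 (12.7%) for 5 cGy + 2 Gy at 6, 12 and 24 h, 6 (6.99%) for 5 cGy at 24 h, 2 (2.37%) for all irradiated groups, and 3 (6.11%), 11 (17.2%), 7 (8.68%) and 17 (28.1%) for time, in the same order of treatments as above. With array weights they were 3 (4.19%) and 7 (17.9%) for 2 Gy at 12 and 24 h, 1 (0.773%), 3 (8.74%), 4 (6.5%) and 9 (23.5%) for 5 cGy + 2 Gy at 3, 6, 12 and 24 h, 1 (0.565%) and 4 (9.82%) for 5 cGy at 6 and 24 h, 3 (6.38%) for all irradiated groups, and 1 (7.42%), 6 (20%), 8 (24.6%) and 17 (36.2%) for time. Cyclic loess gave 1 (5.68%) for 2 Gy at 24 h, 3 (10%) for 5 cGy + 2 Gy at 24 h and 1 (1.11%) for all irradiated groups. The GAPDH covariate gave 0 (0.175%), 0 (0.636%) and 1 (5.77%) for 2 Gy at 6, 12 and 24 h and 0 (1.44%) for 5 cGy + 2 Gy at 12 h. The interquartile range filter gave 0 (0.192%) and 0 (0.788%) for 2 Gy at 6 and 12 h and 0 (1.71%) for 5 cGy + 2 Gy at 12 h. The mean of probe sets gave 0 (0.126%) for 2 Gy at 6 h and 0 (0.236%) and 0 (1.28%) for 5 cGy + 2 Gy at 6 and 12 h. With only the arrays compared the counts were 0 (0%) and 0 (0.0219%) for 2 Gy at 6 and 12 h, 0 (0%), 0 (0.0329%) and 0 (2.31%) for 5 cGy + 2 Gy at 6, 12 and 24 h, 1 (6.85%) for time after 2 Gy (DDX60, and neither OAS3 nor OASL), 0 (5.66%) for time after the combined doses, and 1 (0.274%) for dose at 24 h (SAMD9). The threshold of the study's methods, an unadjusted p under 0.05 with a 1.2-fold change, gave 3 (10.2%), 2 (7.6%) and 4 (15.8%) for 2 Gy at 3, 12 and 24 h, 1 (4.51%), 2 (6.32%), 3 (9.73%) and 5 (19%) for 5 cGy + 2 Gy at 3, 6, 12 and 24 h, 1 (4.24%) and 1 (6.84%) for 5 cGy at 6 and 12 h, 4 (13.3%), 11 (24.8%) and 5 (15.6%) for time, 2 (2.76%) for the difference in time between the combined doses and 2 Gy, 1 (3.95%) and 2 (2.86%) for 5 cGy + 2 Gy against 2 Gy at 3 and 6 h, and 1 (3.23%) and 1 (0.959%) for dose at 24 h and over the times.

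Without 1 array the counts against sham ran from 0 to 1 for 2 Gy at 6 and 12 h, 5 cGy + 2 Gy at 6 and 12 h, 5 cGy at 12 and 24 h and all irradiated groups, from 0 to 3 for 2 Gy at 24 h and from 1 to 6 for 5 cGy + 2 Gy at 24 h. For time they ran from 1 to 4 after 2 Gy, 0 to 1 after 5 cGy + 2 Gy and 6 to 12 over the treatments. The shares of all genes called in these fits are not given, so the ranges cannot be read as particular to the 34 genes. None of 31 named changes reversed under any of the alternatives run. The medians of the 34 genes turned direction in 56 of 293 cases without 1 array, so medians near 0 have no settled direction. The cause of these differences was not tested.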
